A study of Mus musculus with 3 samples.

Results

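The cytochrome P450 genes were followed through a map of the RNA contacts of RBFOX2 in mouse hepatocytes. They were taken as every protein-coding gene of GENCODE M21 (mouse genome GRCm38) whose symbol is Cyp followed by a digit, which gave 100 of 22028 protein-coding genes. A cluster of crosslink positions was given to a gene when it lay on the strand of the gene with its midpoint inside the gene span, and genes without a cluster counted as zero. By this rule 36 of the 100 Cyp genes (36.0%, Wilson 95% interval 27.3 to 45.8%) held 225 clusters with a summed count of 7567, against 41.7% of all protein-coding genes that held at least 1 cluster. The share of Cyp genes was therefore near that of coding genes in general, and within the family the counts were unevenly spread. The count is the score of each cluster in the list, taken here as its number of cDNA starts.

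RBFOX2 was immunoprecipitated with an antibody to the protein (RBM9) from UV-irradiated primary hepatocytes of C57BL6/J mice on control diet, in 3 libraries that form 1 group. The assay, eiCLIP, is a faster form of iCLIP in which the start of each cDNA marks the nucleotide crosslinked to the protein. The labels give 3 livers for each library, whereas the methods of the study describe independent cultures that each came from a pair of mice. The cells had been plated overnight before irradiation, in medium that held dexamethasone according to the methods, and the labels name no knockout, treatment or other cell type. The authors pooled the libraries into 1 cluster list, so no value below has a spread between libraries and no test between groups was possible. The intervals cover counting error only.

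Cytochrome P450 enzymes are haem proteins of the endoplasmic reticulum and the mitochondria that use electrons from partner reductases to insert oxygen into their substrates. In the liver, families 1 to 3 mainly clear drugs and other foreign compounds, family 4 oxidises fatty acids at their far end, and several small families make bile acids and cholesterol. RBFOX2 is a splicing factor that recognises GCAUG, or UGCAUG, and binds mostly in introns next to regulated exons, but also in 3′ UTRs.

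The sites below are shown because they are copies of the RBFOX word inside or near exonic clusters of genes described below, and because those of the Cyp2a genes can be compared base by base. Each is a stretch of 29 bases of GENCODE M21 transcript sequence on GRCm38, printed 5′ to 3′ on the strand of the gene, with GCATG (the DNA form of GCAUG) in capitals.
Cyp2a12, 3′ UTR, chr7:27036747-27036775, plus strand: aagggaccacgtGCATGgaagaaatagaa
Cyp2a22, 3′ UTR, chr7:26932228-26932256, minus strand: aagggaccacgtGCATGgaagaaatagaa
Cyp2a4, 3′ UTR, chr7:26314882-26314910, plus strand: tgatcctgggctGCATGaggttaaaggga
Cyp2a5, 3′ UTR, chr7:26843057-26843085, plus strand: tgagcctgggctGCATGaggttaaaggga
Cyp2b10, 3′ UTR, chr7:25926330-25926358, plus strand: agtactcctattGCATGtctccaaatctc
Cyp2b10, 3′ UTR, chr7:25926359-25926387, plus strand: cagggctccaagGCATGttcttcttccct
Cyp2c70, coding sequence, chr19:40153602-40153630, minus strand: aactggtttattGCATGtgcctccaccct
Cyp3a11, coding sequence, chr5:145865950-145865978, minus strand: tgttaaatatctGCATGttcccaaaggat
Cyp4a14, 3′ UTR, chr4:115486944-115486972, minus strand: ttcccaacctgtGCATGtacctgtttccc
Cyp4v3, 3′ UTR, chr8:45306411-45306439, minus strand: agcaggccccttGCATGcccctgtcaagg
The Cyp2a12 and Cyp2a22 stretches were identical over 29 bases, and those of Cyp2a4 and Cyp2a5 differed at 1 of 29. Between these pairs only 10 or 11 of 29 bases matched, so the Cyp2a genes carried the word in different contexts, at 107 to 113 nt past the stop codon in the first pair and at 10 nt past it in the second.

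A few genes carried most of the signal. Cyp2b10 alone held 71 clusters and a summed count of 2980 (exact Poisson 95% interval 2874 to 3089), which was 39.4% of the Cyp count. Cyp2a12 followed with 1120 (1055 to 1188) in 9 clusters, Cyp2c70 with 870 (813 to 929.8) in 33 and Cyp7b1 with 491 (449 to 536) in 13. These 4 genes held 72.2% of the count, and the intervals of neighbours in this order did not overlap down to Cyp4a14, at 372 (335 to 412), and Cyp3a11, at 234 (205 to 266). Further down, the intervals of neighbours overlapped, beginning with Cyp3a11 against Cyp27a1, at 214 (186 to 245). At the other end, 18 genes had a single cluster, with a median count of 16.0 and a range of 10 to 35, where 10 is the lowest count in the list. The median Cyp gene with a cluster had a summed count of 32.0, against 63.0 over the 9191 coding genes with a cluster. Genes with 5 or more clusters were 13 of 100, against 17.5% of coding genes.

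**Figure D1:**
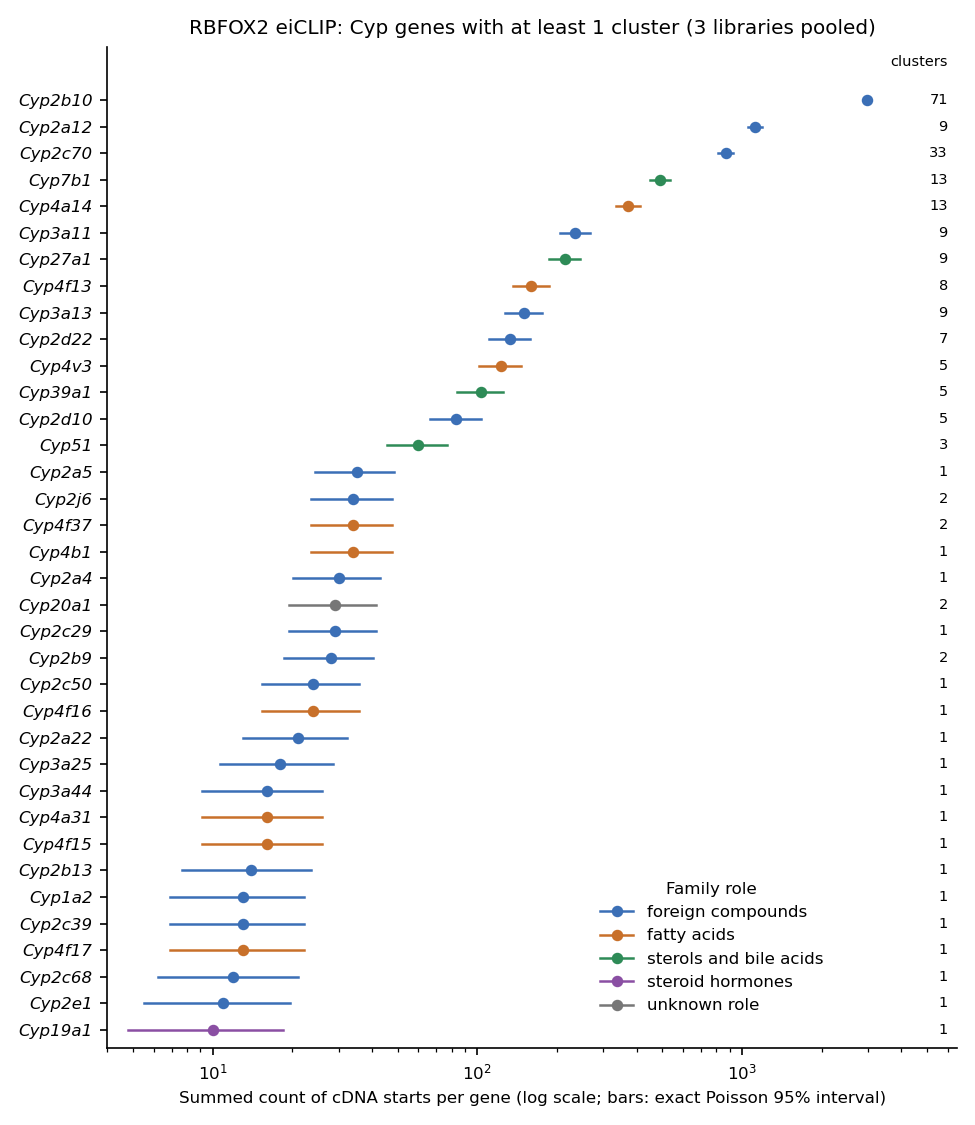
Summed count of cDNA starts for each of the 36 Cyp genes with a cluster, on a log scale, coloured by the main role of the family, with exact Poisson 95% intervals as bars and the number of clusters at the right. Cyp2b10, at 2980, lies far above the rest, and the lower 22 genes sit between 10 and 35.

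Summed counts can follow the length of a gene, so levels were compared per length. Exonic counts per kb of annotated exon were 939 in Cyp2b10 and 666 in Cyp2a12. Among the 5819 coding genes with an exonic cluster, whose median was 9.83, these were the 18th and the 27th highest. Cyp4a14 had 120.3 exonic counts per kb, Cyp3a11 93.9 and Cyp2c70 68.1, while Cyp2d22 had 21.3 and the remaining 18 Cyp genes with an exonic cluster lay between 5.27 and 17.3. The list carries no RNA level, so a well-expressed transcript and a well-bound one cannot be told apart here.

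Cyp2b10, a drug-metabolising enzyme known for its strong induction by phenobarbital through the receptor CAR, was covered from end to end (chr7:25897620-25926624, plus strand). Of its 71 clusters 49 were intronic, 16 lay in coding sequence, 5 in the 3′ UTR and 1 in the 5′ UTR. The highest, with 515 counts, filled 145 nt of the 3′ UTR (chr7:25926388-25926532). A cluster of 445 counts covered most of exon 3, which is 150 nt long, and ran into intron 3 (chr7:25911582-25911713), and a cluster of 152 counts lay in the coding part of exon 1. Clusters were found in 8 of the 9 exons, the exception being exon 8, and exonic counts per kb ranged from 489 in exon 7 to 2967 in exon 3. The introns were lower per length. Intron 4 reached 105 counts per kb, while intron 1 had 26 clusters and 52.8 counts per kb and intron 8 had 16 clusters and 38.0. Introns 2 and 7, of 153 and 166 nt, had none. Only 1 cluster of intron 1 rose far above the others, at 137 counts, with the remaining ones between 10 and 49.

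The annotation skips 1 small exon of Cyp2b10 in 1 of 2 spanning transcripts, and its sequence is shown because a cluster lay at its edge. This cassette exon of 27 nt lies inside intron 8 of the other transcript (chr7:25925373-25925399, plus strand, GRCm38, GENCODE M21 transcript Cyp2b10-201).
Cyp2b10 cassette exon: gacaaatttttgatcaaaagtctgtgg
A cluster of 19 counts (chr7:25925399-25925414) began on the last base of this exon and ran into the intron downstream, and no intronic cluster lay in the 300 nt upstream. The intron sequence around it was not used here, so the motif could not be looked for. Over all Cyp genes, 45 internal exons in 19 genes were skipped by at least 1 spanning transcript. Of the 45, 6 had an intronic cluster within 300 nt upstream, against 4.46% of the 15883 such exons of all coding genes. Within 300 nt downstream it was 4 of 45, against 4.92%. A cluster midpoint fell inside 3 of 45, against 4.77%. These counts overlap, since 1 cluster can lie near several exons. The exons with a cluster beside or inside them belonged only to Cyp2b10, Cyp2d10, Cyp2d22 and Cyp4f13, and no difference from all coding genes was tested. Cyp3a25, with 8 such exons, had none near them.

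**Figure D2:**
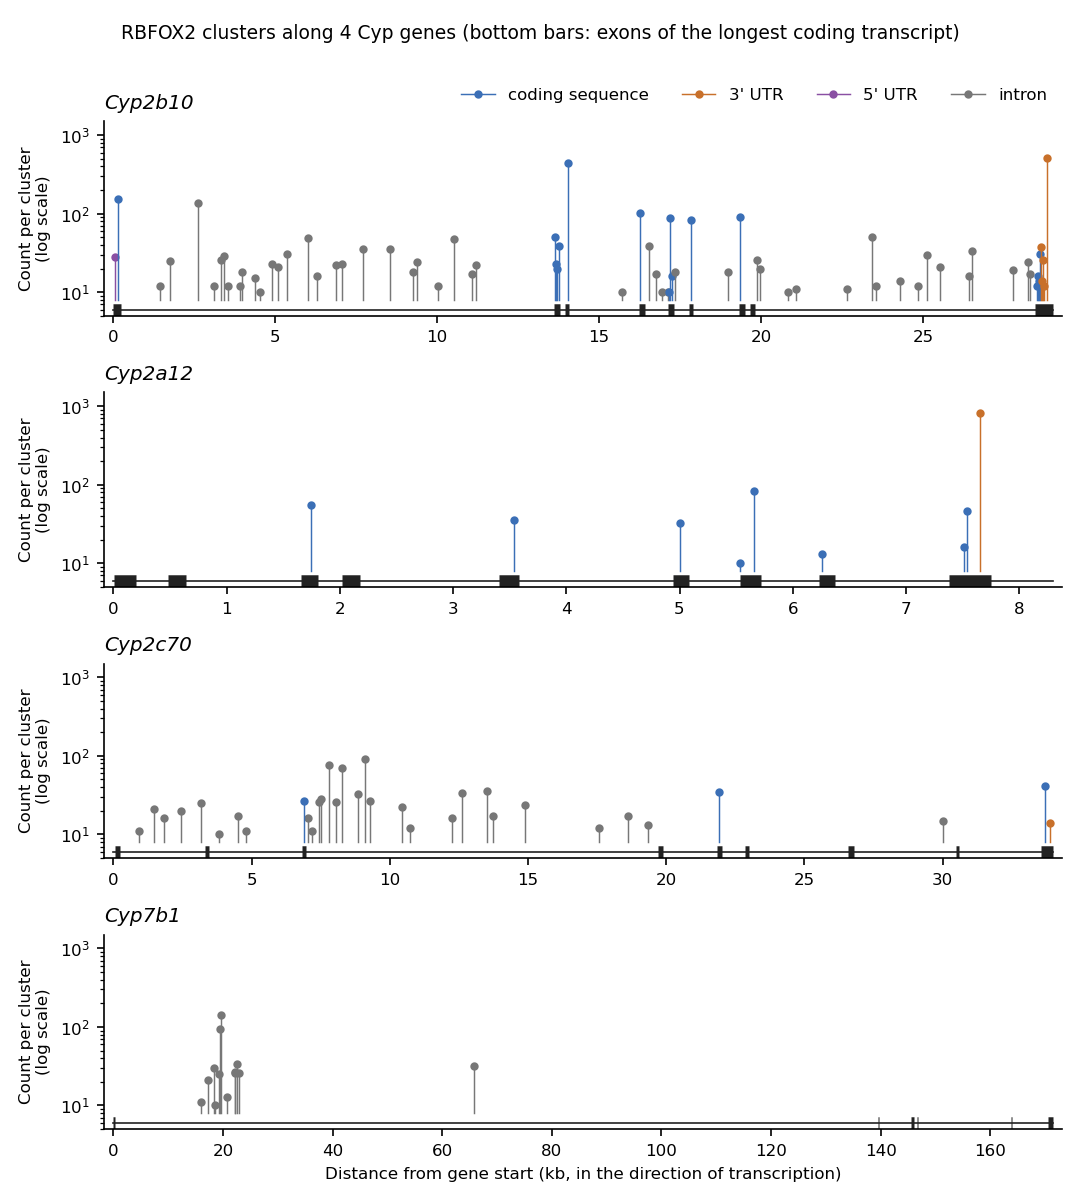
Clusters along Cyp2b10, Cyp2a12, Cyp2c70 and Cyp7b1, by distance from the gene start in kb, with the count per cluster on a log scale and the annotation class as colour; black bars are exons of the longest coding transcript. Cyp2b10 is marked in exons and introns alike, Cyp2a12 in exons, Cyp2c70 mainly in intron 3, and Cyp7b1 in a short stretch of intron 1.

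Cyp2a12, a hepatic steroid hydroxylase, was marked in exons only. All 9 of its clusters were exonic, and its 3′ UTR cluster of 826 counts (chr7:27036658-27036807) was the highest of the whole family and held 73.8% of the count of the gene. The other 8 lay in coding sequence and ranged from 10 to 84 counts. The highest cluster covered bases 12 to 161 past the stop codon and enclosed the GCATG printed above. All 4 protein-coding Cyp2a genes had a 3′ UTR cluster, and in each a copy of the word lay inside the cluster. A second copy in Cyp2a5, at 267 nt past the stop codon, lay outside its cluster. Of all windows of the same length in these 3′ UTRs, however, every one in Cyp2a12, 98.0% in Cyp2a5, 71.2% in Cyp2a4 and 61.8% in Cyp2a22 hold the word. Their single clusters counted 35 in Cyp2a5, which hydroxylates coumarin and nicotine, 30 in Cyp2a4, a steroid hydroxylase close to it in sequence, and 21 in Cyp2a22. Cyp2a12 held 92.9% of the Cyp2a count. These genes resemble each other: 35.7% of the exonic 30-mers of Cyp2a12 also occur in Cyp2a22, and only 40.6% of those of Cyp2a4 and 44.4% of those of Cyp2a5 occur in no other gene. Reads were kept only when they mapped to 1 place, so the counts of these pairs are uncertain.

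**Figure D3:**
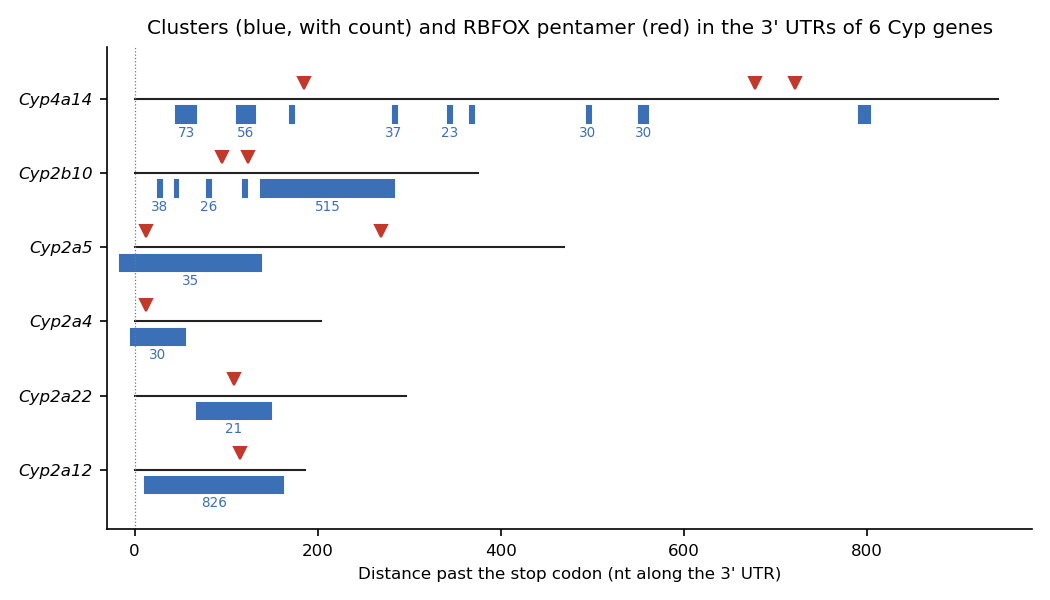
Position of clusters (blue boxes, with counts of 20 or more printed; boxes under 4 nt are drawn 4 nt wide) and of GCATG (red triangles) along the 3′ UTR of 6 Cyp genes, in nt past the stop codon. In the 4 Cyp2a genes the cluster encloses a copy of the word, and a second copy in Cyp2a5 lies outside it. The 515-count cluster of Cyp2b10 begins 13 nt past its second copy. The 2 highest clusters of Cyp4a14, with 73 and 56 counts, lie upstream of all 3 copies.

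In Cyp2b10 the 3′ UTR held the word at 93 and 122 nt past the stop codon. The clusters beside these copies counted 26, at 80 to 82 nt, and 12, at 119 nt. The 515-count cluster began at 139 nt, and its window reached back over both copies.

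Cyp2c70 makes the muricholic acids in mice and so belongs to bile acid synthesis, although its family mainly handles foreign compounds. Per length it was higher in exons, with 68.1 counts per kb of exon against 23.3 per kb of intron. By number, most of its clusters were intronic. It had 33 clusters, of which 29 were intronic, 3 lay in coding sequence and 1 in the 3′ UTR. Intron 3 held 20 of them with 607 counts, or 47.7 counts per kb, and its highest had 90, 77 and 70 counts, at 818 to 2143 nt downstream of exon 3. Introns 4, 5, 6 and 8, of 834 to 3609 nt, held none. The exonic cluster of 41 counts in exon 9 enclosed the GCATG printed above. The other 14 Cyp2c genes together had 4 clusters and 78 counts, with 1 cluster each in Cyp2c29 (29), Cyp2c50 (24), Cyp2c39 (13) and Cyp2c68 (12). The arachidonic acid epoxygenases Cyp2c37 and Cyp2c54 had none. Cyp2c70 shares no exonic 30-mer with another gene, whereas 51.6% of those of Cyp2c37 and 56.7% of those of Cyp2c54 were unique.

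In the other subfamilies for foreign compounds described here the share of the leading gene differed, at 56.0% in Cyp3a and 61.6% in Cyp2d. Cyp2b10 held 98.6% of the Cyp2b count, with Cyp2b9 at 28 and Cyp2b13 at 14, while Cyp2b19 and Cyp2b23 had no cluster. Cyp3a11, the main drug-metabolising Cyp3a enzyme of mouse liver, had 9 clusters and 234 counts, with 4 clusters in the 3′ UTR of 87, 36, 24 and 13 counts. The GCATG printed for it above lay 3 nt from a coding-sequence cluster of 13 counts in exon 8. Its relative Cyp3a13 had 150 counts in 9 clusters, 6 of them intronic, and Cyp3a25 a single intronic cluster of 18. Cyp2d22 had 133 counts in 7 clusters, 4 in coding sequence and 3 in intron 3. Cyp2d10 had 83 counts in 5 clusters, all intronic, and Cyp2d9 and Cyp2d26 had none. Unique exonic 30-mers were 58.0% in Cyp2b13, 72.8% in Cyp2b9, 52.8% in Cyp3a25, 50.5% in Cyp2d10 and 70.5% in Cyp2d9. Their counts are therefore uncertain, as reads were kept only when they mapped to 1 place. The share was higher in Cyp2d26 (84.6%), Cyp2b23 (86.2%) and Cyp2b19 (93.5%), which had no cluster either.

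Several classical hepatic P450s were almost or entirely without clusters. Cyp1a2, which metabolises caffeine, had 1 cluster of 13 counts in the 3′ UTR, and Cyp2e1, which oxidises ethanol, had 1 of 11 counts in coding sequence. Cyp2f2, which oxidises naphthalene, had none, although all of its exonic 30-mers are unique to it. The absence of a cluster means only that none reached the list, whose lowest count is 10. Counts of 0 cannot be turned into a limit on binding, because the list holds only what passed the caller.

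In family 4, which oxidises fatty acids, 9 of 20 genes (45.0%, 25.8 to 65.8%) had 33 clusters and 792 counts. The interval includes the 41.7% of all protein-coding genes that had a cluster. Cyp4a14, a target of the fatty acid receptor PPARα, had 13 clusters and 372 counts, and 9 of the clusters lined its 3′ UTR of 943 nt with 12 to 73 counts each. Its 3′ UTR holds GCATG 3 times, and 1 copy, at 183 nt, lay 11 nt from a cluster of 14 counts. The related gene Cyp4a10, another PPARα target, had none, and only 53.9% of its exonic 30-mers are unique against 97.7% in Cyp4a14. Cyp4f13, which belongs to the eicosanoid hydroxylases, had 160 counts in 8 clusters, 7 of them intronic. Cyp4v3, the mouse counterpart of the gene of a human crystalline retinal dystrophy, had 123 counts in 5 clusters, including 29 counts in the 3′ UTR next to the GCATG printed above. Cyp4b1 had 1 intronic cluster of 34 counts whose window held the word. Every window of the same length and class with sequence in Cyp4b1 holds it, so this match could not have failed. Cyp4f37 had a 3′ UTR cluster of 14 counts whose window held the word as well. The Cyp4f37 cluster was also the 1 of 92 examined that held a heptamer resembling the sequencing adaptor just downstream of its start. Cyp4f14, another eicosanoid hydroxylase, had no cluster.

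The clusters of the sterol and bile acid genes lay almost only in introns. Of 7 genes 4 had clusters, and 27 of their 30 clusters were intronic, against 98 of 159 (61.6%) in the genes for foreign compounds, which by the family rule include the 29 intronic clusters of Cyp2c70. Clusters of 1 gene share their RNA, so this contrast rests on 4 genes. Annotated exons cover only 2166 of 171389 nt in Cyp7b1, 3053 of 84007 in Cyp39a1 and 1892 of 24319 in Cyp27a1. Per kb of intron these genes had 2.90, 1.27 and 9.54 counts, against 42.7 in Cyp2b10 and 23.3 in Cyp2c70. Cyp3a13 and Cyp3a11 had 4.43 and 0.604. The part of intron length in this contrast was not tested. Cyp7b1, the oxysterol hydroxylase of the alternative bile acid pathway, had 13 clusters, all in intron 1, which is 139250 nt long. Of these, 12 with 459 counts fell between 15.9 and 22.9 kb past the gene start, with neighbouring peaks of 143 and 93 counts. The remaining one, of 32 counts, lay at 65.8 kb. Cyp27a1, the mitochondrial sterol hydroxylase that opens the alternative pathway, had 9 intronic clusters with 13 to 39 counts, 4 of them in intron 2. Cyp39a1, which acts on oxysterols, had 5 clusters with 103 counts, all in intron 7 within 6.65 kb. Cyp51, the lanosterol demethylase of cholesterol synthesis, was the exception, with 3 exonic clusters of 25, 18 and 17 counts. Cyp7a1, the rate-limiting enzyme of the classical bile acid pathway, Cyp8b1, which directs it to cholic acid, and Cyp46a1, the cholesterol hydroxylase of the brain, had no cluster. The lowest share of unique exonic 30-mers among the 7 genes was 99.1%, in Cyp51.

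Genes of steroid hormone synthesis, vitamin D and retinoic acid held 1 cluster in all, but these groups are small. The aromatase gene Cyp19a1 had 1 intronic cluster of 10 counts among 6 steroid hormone genes (16.7%, 3.01 to 56.4%). None of the 3 vitamin D or the 3 retinoic acid genes had a cluster (0 to 56.1% for each group). These intervals include the 41.7% of all protein-coding genes. Cyp20a1, an enzyme of unknown role, had 2 exonic clusters of 18 and 11 counts, the second in coding sequence with 2 copies of GCATG in its window.

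By annotation class, 142 of the 225 Cyp clusters were intronic (63.1%, Wilson 95% interval 56.6 to 69.1%), 48 lay in coding sequence (21.3%, 16.5 to 27.1%), 32 in the 3′ UTR (14.2%, 10.3 to 19.4%) and 3 in the 5′ UTR. In the other protein-coding genes the intronic share was 69.4% (69.0 to 69.7%) and that of coding sequence 14.6% (14.4 to 14.9%). The Cyp intervals treat clusters as independent, which they are not, since 31.6% of them come from Cyp2b10. By count, exonic clusters held 54.4% of the Cyp count against 34.8% in the other coding genes. Without Cyp2b10 the exonic share of the count was 49.9% and the intronic share of clusters 60.4% (52.5 to 67.8%). Without both Cyp2b10 and Cyp2a12 these were 33.7% and 64.1% (56.1 to 71.5%), so the higher exonic share of the count rested on these 2 genes. Per gene, 24 of 100 Cyp genes had an exonic cluster (26.4% of coding genes) and 22 an intronic one (35.9% of coding genes), and 10 had both.

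**Figure D4:**
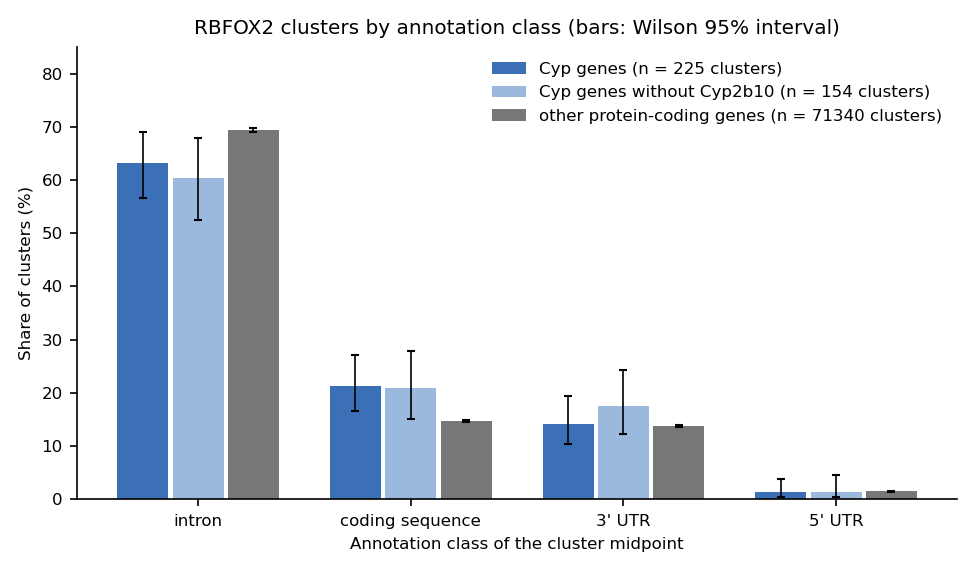
Share of clusters in each annotation class for the Cyp genes, the Cyp genes without Cyp2b10 and the other protein-coding genes, with Wilson 95% intervals that cover counting error only. The Cyp genes lie at 63.1% in introns and 21.3% in coding sequence, against 69.4% and 14.6%.

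Most intronic Cyp clusters lay over 300 nt from an exon. Of 142, 34 lay within 300 nt of the nearest exon (23.9%, 17.7 to 31.6%; 21.6% in the other coding genes), 13 upstream and 21 downstream of it, and the median distance was 1424 nt against 1567 nt. In all, 48 intronic clusters lay in the first intron, of which Cyp2b10 and Cyp7b1 gave most.

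At the Cyp clusters that could be searched, most of them exonic, GCATG was about as frequent as in the same genes and classes at large. A window was formed by adding 50 nt on each side of a cluster, and the motif was read on the strand of the gene where annotated exons covered the window completely. Of 61 such windows 16 held GCATG (26.2%, 16.8 to 38.4%), against 20.3% of the 18172 windows of all protein-coding genes. Over every window of the same length in the same gene and class the mean share was 23.4%, which lies inside the counting interval of the clusters. In 3′ UTRs 11 of 32 windows held it (34.4%, 20.4 to 51.7%), with 31.8% over all windows of the same length and class. The interval treats windows as independent, but 3 of those that held it shared the same 2 copies in Cyp2b10. The match of Cyp1a2 lay before the end of its coding sequence, not in its 3′ UTR. How often such a window holds the word differed widely between genes. All 186 windows of this length in the Cyp2a12 3′ UTR do, as do 96.4% for the 515-count cluster of Cyp2b10 and between 38.8 and 39.9% for its other 3′ UTR clusters. The share was 8.98% in Cyp2c70 and 5.15% for the 29-count cluster of Cyp4v3, which did hold it. It was 0 in Cyp20a1, Cyp2c50 and Cyp51, whose 3′ UTRs lack the word. Only 7 intronic windows had sequence, and 2 of them held the word, in Cyp3a11 and Cyp4b1. The match in Cyp4b1 is uninformative, because every window of that length and class with sequence in the gene holds the word.

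The annotated 3′ UTRs of 93 Cyp genes held 0.970 copies per kb, against 0.967 over 21028 coding genes. They were shorter, with a median of 419 nt against 960.5 nt, and 37 of 93 (39.8%, 30.4 to 49.9%) held at least 1 copy against 55.6% of all coding genes. Of the 16 genes with a 3′ UTR cluster 10 held the word (62.5%, 38.6 to 81.5%), and of the other 77 genes 27 did (35.1%, 25.3 to 46.2%). Their median 3′ UTR lengths were 555 and 414 nt, and the part of length in this contrast was not tested. The 10 genes include all 4 Cyp2a genes, whose sites are near-identical in pairs, whereas the intervals treat genes as independent.

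Near-identical genes are hard to separate when only uniquely mapped reads are kept. For each gene the share of exonic 30-mers found in no other annotated gene was computed. It was under 50% in 13 Cyp genes, of which 3 had a cluster and their summed count was 77. Among the 38 genes with 50 to under 90%, 16 had a cluster, and among the 49 with 90% or more, 17 did (34.7%, 22.9 to 48.7%). The near-identical pair Cyp3a41a and Cyp3a41b, at 0.0985% and 3.98%, had none. A lack of unique sequence therefore could not be told apart from a lack of binding in the lowest class, whereas 32 of the 49 most unique genes had no cluster either.

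**Figure D5:**
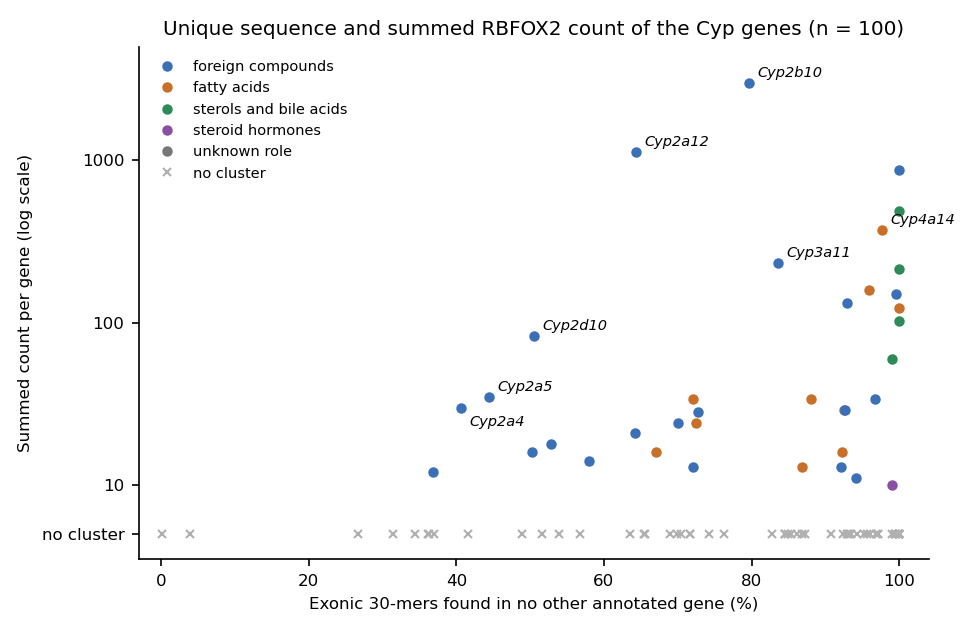
Summed count per Cyp gene on a log scale against the percentage of its exonic 30-mers found in no other annotated gene, with genes without a cluster as grey crosses at the bottom and the role of the family as colour. The lowest share in a gene with a cluster is 36.8%, in Cyp2c68, and above it genes with and without clusters lie side by side; the point of Cyp20a1 lies under that of Cyp2c29, both at 29.

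Genes that work with the P450 enzymes were counted in the same way, where 41.7% of all protein-coding genes had at least 1 cluster. All 9 genes of a list of electron donors and other partners of P450s had clusters. It was led by Pgrmc1, a haem-binding partner, with 1181 counts. Cyb5b with 424 and Cyb5a with 403, both cytochromes b5, followed. The P450 reductase gene Por had 361 counts in 18 clusters. Of 14 regulators of Cyp transcription 12 had clusters, with 1259 counts for the dioxin receptor Ahr, 415 for the bile acid receptor Nr1h4 and 300 for Rxra, the partner of many nuclear receptors, and the 2 without were Nr1i3 (CAR) and Nr0b2 (SHP). Of 9 other bile acid enzymes 5 had clusters (55.6%, 26.7 to 81.1%), led by Scp2 (475), Hsd17b4 (205) and Acox2 (120). Akr1d1, Akr1c6, Amacr and Slc27a5 had none. Among 42 genes of glucuronidation and sulfation 18 had clusters (42.9%, 29.1 to 57.8%), led by Ugt2b36 (665), Ugt2b34 (251) and Sult1a1 (234). However, 9 Ugt1a genes share their last exons and hence the same 3 clusters. The intervals of the bile acid enzymes and of glucuronidation and sulfation include the share of all coding genes. All 6 urea cycle genes had clusters, led by Cps1 (1540), Asl (181) and Otc (140). The median summed count was 0 in the Cyp genes and in all coding genes, and 0 in the genes of glucuronidation and sulfation. It was 26 in the other bile acid enzymes, 127 in the regulators, 132 in the urea cycle and 351 in the electron donors and other partners. These sums are not per length, and no list was tested against the Cyp genes.

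The label of the cells was checked against marker genes, beside the 41.7% of all protein-coding genes that had a cluster. Of 11 hepatocyte markers found in the annotation 10 had clusters, with 14401 counts in all and 8110 for albumin (Alb), and Serpina1a had none. Clusters were found in 2 of 6 endothelial markers (24 counts in all), 1 of 5 Kupffer cell markers (15), 1 of 5 stellate cell markers (150, all in Reln), 1 of 4 lymphoid markers (14) and none of 5 bile duct markers. Pecam1, Kdr, Clec4f, Cd5l, Lrat, Dcn, Epcam and Krt19 had none.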

How the data were processed

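RBFOX2 eiCLIP was measured in 3 libraries of primary mouse hepatocytes. Per the study's methods, the authors trimmed adaptors with cutadapt, discarded reads under 18 nt, aligned end to end to GRCm38 with STAR 2.4.2a, kept uniquely mapped reads, removed PCR duplicates by random barcode, and took cDNA starts as crosslink sites. They then called clusters with Paraclu through iMaps on the 3 libraries summed, and the submitters' processing notes also name CASAVA 1.8.4. The deposited list holds 87021 clusters with a whole-number count each, at least 10. That the number is a count of cDNA starts was taken from its values, and no input, RNA level or library depth was used here. Unique mapping lowers the counts of near-identical genes, and the count minimum hides weak clusters.

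From the list, clusters were assigned by strand and midpoint to GENCODE M21 genes, whereas the methods name an earlier release. All transcripts of a gene decided the class of a midpoint: coding sequence took precedence, then the 3′ UTR, the 5′ UTR and other exons, and what remained was intron. Transcripts annotated as retaining an intron gave no exon here. Exons and introns were numbered along the longest coding transcript that spans the cluster. Sequence came from 141767 transcripts placed on the genome with 0 conflicting bases, so introns outside annotated exons were not searched. The word GCATG was looked for in windows extended by 50 nt, on the strand of the gene only.

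With 1 pooled list there was no replicate and no test. Wilson and exact Poisson 95% intervals were computed with scipy 1.17.1, numpy 2.4.6 and Python 3.11.15, and figures were drawn with matplotlib 3.10.9. The scripts were tested on simulated data. Genes named were the 15 with the highest summed count, those of the 5 highest clusters, every Cyp gene with GCATG in a window, the sterol and bile acid genes and well-known hepatic P450s, and, for each other list, its 3 highest members and, where they were 5 or fewer, those without a cluster. Other genes were named after their values were seen. The genes and lists were chosen with earlier results of these data known. Another gene list fixed with these is not reported here, and this rule was not applied to it. Cyp genes that are not protein-coding (31 of 131) were left out. Alternatives tried were stricter count limits, other gene overlaps and strands, merged clusters, other motifs, windows and exon definitions, and leaving out clusters with an adaptor-like heptamer.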

Additional observations from a re-analysis of the deposited data

Results flagged for a closer look

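Outside the counts above, 3 clusters lay on the strand opposite a Cyp gene where no gene is annotated on their own strand, with a summed count of 39. They counted 11 opposite Cyp4f13, 16 opposite Cyp4f15 and 12 opposite Cyp7b1. Another 2 clusters lay in Cyp pseudogenes, with a summed count of 24, of which 10 fell in Cyp2a21-ps and 14 in Cyp2d38-ps. No control library was used here to set these values against.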

How the results depend on the processing

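Keeping only clusters in the top 10% of counts (39 or more) left 9 Cyp genes, 30 clusters and a summed count of 3760, with an intronic share of 43.3% against 63.1%. Clusters at or above the median count of 17 numbered 135 of 225. Leaving out Cyp2b10, an alternative chosen after seeing the data, lowered the summed count from 7567 to 4587, and leaving out Cyp2a12 as well, also chosen then, left 145 clusters and a summed count of 3467. The share of windows holding GCATG was 26.2% (16 of 61). It was 41.9% (13 of 31) with clusters merged within 200 nt and 42.2% (19 of 45) with windows extended by 100 nt. For CATGC, which is GCATG read on the opposite strand, the share was 8.20%. No share of CATGC over other windows of these genes is given here, so its value measures no enrichment of GCATG. Merging and extending change both the length searched and which windows have sequence, and the cause was not tested. Windows along the spliced transcript, also added after seeing the data, gave 21.7%. Ordering genes by exonic count per kb of exon kept 6 of the top 10, while ordering by number of clusters kept all 10. Across the other alternatives, genes with a cluster ranged from 25 to 38 and the intronic share from 60.0 to 69.1%. No paired analysis was possible because the libraries were pooled into 1 list before deposit, and for the same reason no replicate could be left out. The count minimum of 10 limits what can be said of genes without a cluster.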
